A study of Homo sapiens with 12 samples.

Results

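The 40 genes described here form the core of the E2F and cell cycle pathway: the E2F transcription factors and their DP partners, the pocket proteins, the cyclins with their kinases and inhibitors, and the replication genes that E2F factors switch on. They were picked by name, 40 of the 20033 protein-coding genes of the annotation. A gene's window was its GENCODE body with 10 kb on each side, in the hg38 build. Peaks of all 6 lists that overlapped or adjoined were merged into 355394 common regions, of which 567 lay in the windows of these 40 genes and none was listed for more than 1 of them.

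Chromatin accessibility was measured by ATAC-seq, in which a transposase cuts open DNA, in KO-52, a human acute myeloid leukaemia cell line with biallelic mutations of CEBPA. CEBPA encodes C/EBPα, a transcription factor of the myeloid lineage made as a full-length form, p42, and a shorter form, p30. The cells carried p42, p30 or an empty vector (EV), and were treated with DMSO, the solvent, or with tunicamycin at 2 µg/mL for 8 h, which blocks N-glycosylation and so stresses the endoplasmic reticulum. Each of the 6 conditions had 2 replicates, giving 12 samples, but the authors called peaks on both replicates together, so there was 1 list of peaks per condition, no spread between replicates and no test. The study's methods describe KO-52 cells transduced with vectors for p42 or p30 fused to the ERT2 domain and sorted for GFP, and 4-hydroxytamoxifen, which moves an ERT2 fusion into the nucleus, given to ERT2 cells and their EV controls alike. Whether it was given for the ATAC-seq is not stated in the sources used here. The p42 and p30 cells overexpressed 1 isoform in a line that still carried its own mutant CEBPA, and no cloning of the sorted cells is described.

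E2F factors pair with DP proteins on the promoters of genes for DNA replication and the start of S phase. In resting cells the pocket proteins RB1, RBL1 and RBL2 hold E2F in check; D cyclins with CDK4 or CDK6, then cyclin E with CDK2, phosphorylate the pocket proteins and release it, and the CDK inhibitors oppose these kinases. In the myeloid lineage p42 is known to restrain E2F as cells leave the cycle, while p30 lacks an N-terminal part of the protein. An open promoter shows that the DNA can be reached, not that the gene is transcribed, and in pooled nuclei a region open in fewer cells and one cut less often in each cell cannot be told apart.

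The lists held between 187704 and 254239 peaks, the most in p42 cells in DMSO. The height at each summit came out as a whole number of tags, the unit that the peak caller counts, for 100% of peaks. Whether a tag was a fragment end or a whole fragment is not given in the sources used here. The lowest local background implied 22250000 to 29980000 tags per list, the most again in p42 cells in DMSO. Heights are not normalised between lists, so peaks were compared by presence and by percentile, the place of a peak by its q value among all peaks of its own list, where 100 is the strongest. Of the myeloid markers, SPI1, CD33, MPO, CSF3R, LYZ and ELANE had a promoter peak in all 6 lists and AZU1 in 5. HBB had none and ALB had one in 2 lists, but the promoters of EPCAM and CD3E, which belong to other cell types, were open in all 6, so promoter peaks alone did not mark the lineage.

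The first question was whether the promoters of these genes were open in every condition. A promoter was 1 kb on either side of any start site of the gene. All 40 genes had a promoter peak in all 6 lists, against 75.9% of the other coding genes and against 32.2 of 40 for coding genes with the same number of common regions. Neither comparison was matched for the number of start sites, which ran from 1 at E2F1 to 25 at MCM4. A promoter was represented in each list by its strongest peak, and at 9 of the 40 genes (E2F7, CCND1, CCND2, CCND3, CDK6, CDKN1B, CDT1, PCNA and RRM2) that peak did not lie in the same common region in every list. Followed in 1 common region per gene, that with the highest mean percentile, 39 of the 40 promoters were open in all 6 lists and CDT1 in 5. Over the 40 promoters the median percentile in DMSO was 91.3 for EV, 93.5 for p30 and 94.4 for p42, and 92.7, 92.9 and 93.7 after tunicamycin. The other coding genes with a promoter peak had medians of 89.2, 90.4 and 91.6 in DMSO, and 90.2, 89.9 and 91 after tunicamycin.

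**Figure D1:**
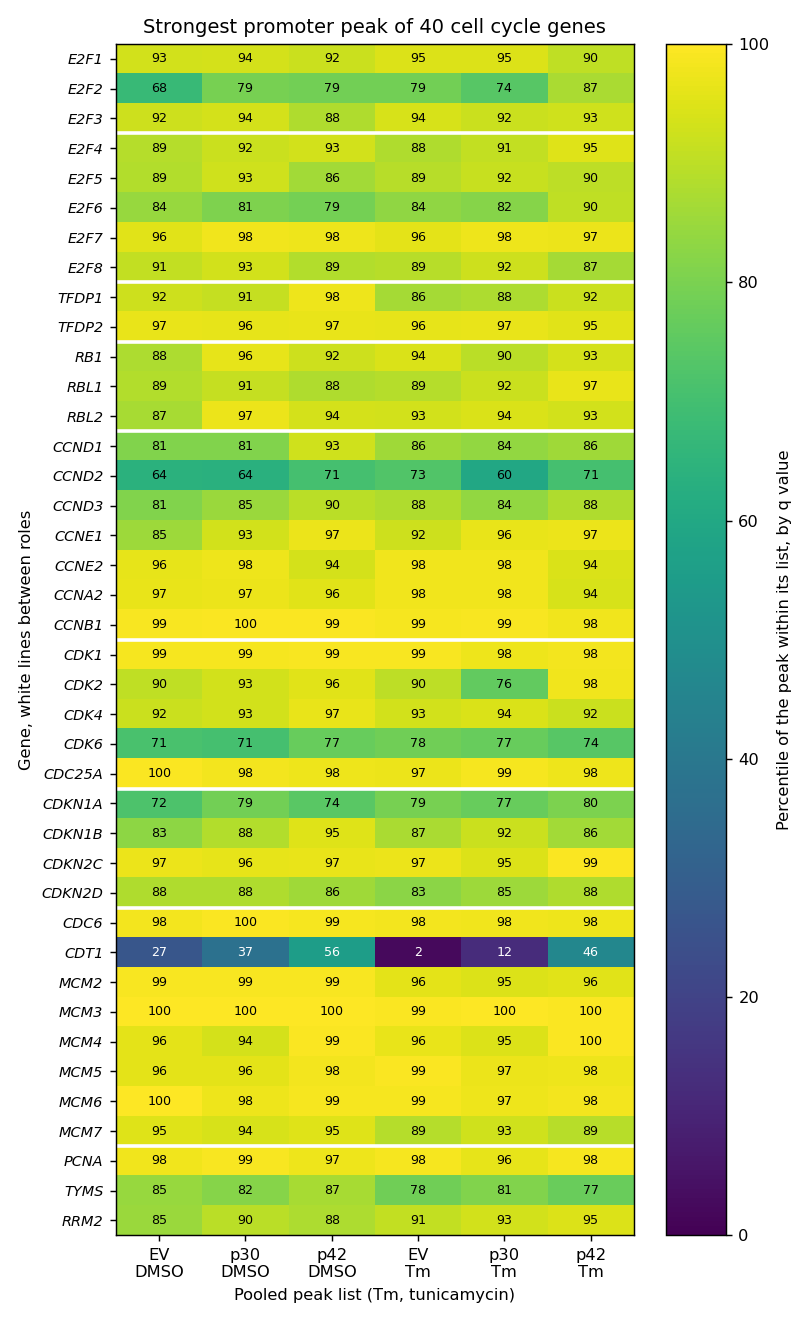
Percentile of the strongest promoter peak of each of the 40 genes (rows, by role) within each of the 6 pooled lists (columns), ranked by q value, with the value in each cell. At 9 genes the strongest peak lies in different regions in different lists. All cells but those of CDT1, at 2.49 to 55.8, are above 60.

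Promoters of 4 of these genes show the letters that E2F reads. They are the 250 bases before the RefSeq start site (GRCh38.p14), 5′ to 3′ on the gene's strand, and were chosen because no other gene of their role has more E2F matches near its promoter summit. Capitals mark the matches. MCM6, at chr2:135876444-135876693 on the minus strand, is a subunit of the replicative helicase; RBL1, at chr20:37095998-37096247, also minus, is the pocket protein p107; E2F1, at chr20:33686386-33686635, minus, is itself an E2F target; CDC25A, at chr3:48188418-48188667, minus, is the phosphatase that activates CDK2.
MCM6: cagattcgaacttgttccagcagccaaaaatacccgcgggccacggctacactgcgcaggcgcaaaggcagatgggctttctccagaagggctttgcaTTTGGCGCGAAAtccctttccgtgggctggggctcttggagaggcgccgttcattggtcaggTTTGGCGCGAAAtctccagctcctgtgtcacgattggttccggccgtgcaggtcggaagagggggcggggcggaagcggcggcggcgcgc
RBL1: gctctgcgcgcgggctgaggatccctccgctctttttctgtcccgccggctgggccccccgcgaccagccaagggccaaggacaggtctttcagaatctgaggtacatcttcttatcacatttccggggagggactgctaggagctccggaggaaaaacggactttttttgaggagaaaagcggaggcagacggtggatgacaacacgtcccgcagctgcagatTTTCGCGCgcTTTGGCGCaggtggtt
E2F1: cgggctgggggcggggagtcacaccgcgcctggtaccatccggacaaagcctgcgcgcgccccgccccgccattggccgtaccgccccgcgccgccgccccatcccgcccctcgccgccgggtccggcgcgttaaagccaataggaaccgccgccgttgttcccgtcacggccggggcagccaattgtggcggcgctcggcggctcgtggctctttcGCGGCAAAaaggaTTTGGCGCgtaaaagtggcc
CDC25A: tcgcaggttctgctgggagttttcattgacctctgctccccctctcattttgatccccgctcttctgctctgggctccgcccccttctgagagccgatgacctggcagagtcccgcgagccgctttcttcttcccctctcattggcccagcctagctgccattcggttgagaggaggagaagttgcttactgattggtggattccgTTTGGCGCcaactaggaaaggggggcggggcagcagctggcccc

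The letters searched were TTTCCCGC, TTTGGCGC, TTTGCCGC and TTTCGCGC, on both strands, with overlapping matches counted separately. Within 300 bp of the summit of the strongest promoter peak in p42 cells in DMSO, 21 of the 40 genes held a match (52.5%, 95% Wilson interval 37.5 to 67.1), against 7.4% of 16388 other coding promoters. All 8 replication licensing genes had one, with 16 matches among them: 4 in MCM6, 3 in MCM5, 2 each in MCM2, MCM3 and MCM7, and 1 each in MCM4, CDC6 and CDT1. All 3 activator genes E2F1, E2F2 and E2F3 had one too, but only 1 of 7 cyclins did at the summit searched, CCNE1. At CCND1, E2F7 and CDKN1B that summit lay inside the gene, at chr11:69643476, chr12:77049970 and chr12:12696711. A lack of matches there does not cover the other starts of these genes. A CCAAT box stood in 67.5% of the 40 promoters and in 48.8% of the others. The CHR element TTTGAA, which the DREAM complex uses at late cell cycle genes, was in 12.5% against 19.9%, and 4 of its matches were in CDK1. The C/EBP letters TTGCNNAA were in 10% against 15.6% and the AP-1 letters TGANTCA in 5% against 9.49%. GC content did not separate the sets, with medians of 62.7% and 62.9%. A match is a stretch of letters, not a measured binding site.

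Most of the replication genes had promoters near the top of every list. MCM3, a helicase subunit, was at percentile 99.8 in EV, 99.7 in p30 and 99.9 in p42 cells in DMSO, and at 99.3, 99.8 and 99.5 after tunicamycin, with 56 to 65 tags. CDC6, which loads the helicase, lay between 97.5 and 99.6, MCM6 between 97.3 and 99.7, MCM5 between 95.8 and 99.3, and PCNA, the sliding clamp, between 94.8 and 99.1 in the region at its canonical start and between 94.4 and 98.2 at a start upstream of it. MCM2 was at 99, 99.1 and 99 in EV, p30 and p42 cells in DMSO, and at 96, 94.9 and 95.5 after tunicamycin, so all 3 treated values were under all 3 untreated ones. MCM7 was at 95, 93.8 and 95.1 in DMSO and at 88.7, 92.8 and 89.1 after tunicamycin. RRM2, a subunit of ribonucleotide reductase, lay between 82.4 and 94.6 in a single region, and TYMS, thymidylate synthase, between 77 and 87.1.

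CDT1, the licensing factor that brings MCM to origins, stood apart as the weak promoter. The region at its start site was at percentile 26.7 in EV, 13.6 in p30 and 55.8 in p42 cells in DMSO, with 18, 17 and 25 tags. After tunicamycin it had no peak in EV, and was at 4.49 in p30 and 46.2 in p42 cells with 13 and 20 tags. A separate region 0.805 kb from the start was the strongest in p30 cells in DMSO and in EV and p30 cells after tunicamycin, and stood at 37.2, 2.49 and 12.5 there. With the promoter narrowed to 500 bp it was the single gene of the 40 to drop out of the count of promoters open in all 6 lists, and CDT1 and CCND2 dropped out when every list had to show a −log10 q of 10 or more.

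Among the factors themselves, the activators E2F1 and E2F3 had percentiles of 90.5 to 94.9 and 88.2 to 94.1, and E2F2 the lower range of 67.5 to 87.4. The repressors E2F4, E2F5, E2F6, E2F7 and E2F8 lay between 88.2 and 95.3, 86.1 and 92.6, 79.2 and 90.5, 95 and 97.7, and 86.7 and 93. The range of E2F7 is that of an internal start 15.7 kb into the gene, and its canonical promoter was at 93.3, 91.5 and 94 in EV, p30 and p42 cells in DMSO and at 96, 89.5 and 90.1 after tunicamycin. Their DP partners TFDP1 and TFDP2 lay between 86.5 and 97.5 and between 95.4 and 96.8. Of the pocket proteins, RB1 lay between 87.7 and 96.3, RBL1 between 88 and 96.7 and RBL2 between 87.1 and 97.1. None of these promoters was absent from any list.

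The mitotic cyclin and kinase genes CCNB1 and CDK1 were also near the top of every list, between 97.9 and 99.5 and between 97.6 and 99.1. CCNA2 lay between 94 and 97.9. The D cyclins were lower: followed in 1 region each, CCND1 lay between 76.7 and 92.7, CCND2 between 60.1 and 73 and CCND3 between 75.8 and 89.5. The CCND1 and CCND2 regions start at chr11:69643156 and chr12:4271937, inside genes whose first annotated bases are 69641156 and 4269771. In p42 cells in DMSO the strongest CCND2 promoter peak was elsewhere, at chr12:4273659-4273835. The CCND3 region, at chr6:42050322-42050876, is at its outermost start. In EV cells in DMSO the strongest CCND3 promoter peak was elsewhere, at chr6:41941550-41942245. CDK6, their kinase partner, lay between 63 and 77.8 with 38 to 49 tags at its summit, and CDK4 lay between 91.9 and 96.7. CDC25A lay between 97 and 99.6. Among the CDK inhibitors, CDKN2C (p18) lay between 94.8 and 99.4, CDKN1B (p27) between 78.8 and 95.2 in a single region, CDKN2D (p19) between 82.6 and 88.1, and CDKN1A (p21) between 72.2 and 80.2. The CDKN1B region, at chr12:12696478-12697019, lies inside the annotated gene, whose first base is 12685498. The gene has 8 annotated start sites. The range is that of this region alone, and its other starts, the canonical one included, are not reported here.

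The next question was whether promoter strength differed between the isoforms. In DMSO the promoter percentile was higher in p42 than in p30 cells for 20 of the 40 genes and lower for the other 20, with a median difference of 0.0297 points. Of the other coding genes with a promoter peak in both lists, 61.2% were higher in p42 cells and the median was 0.985 points, and among those already at a percentile of 80 or more in p30 cells 55% were higher, with a median of 0.3. With 1 region per gene the split was again 20 to 20 with the same median, against 60.4% and 0.896 points. In that measure CDT1 was at 55.8 with p42 and 13.6 with p30, CCND1 at 92.7 and 76.7, and E2F5, the lowest difference, at 86.1 and 92.6. The CCND1 region lies inside the gene, and with p30 the strongest CCND1 promoter peak, at chr11:69641075-69641403, was at 81.2. After tunicamycin 23 of 40 were higher in p42 cells and the median was 0.718 points, against 58.4% and 0.752 points. By summit tags, the median ratio of p42 to p30 in DMSO was 1.02 over the 40 genes and 1.06 over 11624 other coding genes with strong promoters in all lists, while the ratio of the depths was 1.13.

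A promoter was counted as apart when both p42 percentiles lay outside those of the 4 other lists, a rule chosen after the values were seen. Both p42 lists were above the others for 5 of the 40 genes (12.5%, against 20.9% of coding genes): E2F4, CCNE1, CDK2, CDT1 and MCM4. Among the 11624 other coding genes with strong promoters the share was 18.1%. With 1 region per gene the 5 were the same but for CCND3 in place of CDT1, which had no peak in 1 list, against 20.4%. The CCND3 region is the one at its outermost start. MCM4, a helicase subunit, was at 99.4 and 99.6 with p42, and at 93.6 to 96.5 in the other 4 lists, with 66 and 62 tags against 49 to 53. These tags are not scaled for depth. The p42 list in DMSO was 1.35 times as deep as the EV list, while the median tag ratio of other strong promoters was 1.16. Divided by the estimated depth of its list, the MCM4 summit in DMSO was level in p42 and EV cells and lower in p30 cells. After tunicamycin it was highest in p42 cells. CDK2 was at 95.7 and 97.8 with p42, and at 90.3, 93.1, 90.2 and 75.8 in the others. CCNE1, cyclin E1, was at 97.1 and 97.2 with p42, and at 85.2 to 96.5 in the others.

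Both p42 lists were below the others for 4 of the 40 genes (10%, against 6.62% of coding genes), and these were E2F1, E2F8, CCNE2 and CCNA2, by 1 region per gene too (against 6.96%). Among the other coding genes with strong promoters the share was 7.67%. E2F1 was at 91.9 and 90.5 with p42 and at 93 to 94.9 in the others. CCNE2, cyclin E2, was at 93.5 and 94.3 with p42 and at 96.4 to 98 in the others, and CCNA2, cyclin A2, at 95.6 and 94 against 96.8 to 97.9. E2F8, a repressor that is itself induced in S phase, was at 88.6 and 86.7 against 89.1 to 93. All 8 of these p42 percentiles were still high, and the unscaled tags overlapped, with 55 and 54 at CCNE2 in p42 cells against 55 to 62 elsewhere. Divided by the estimated depth of each list, the tags did not overlap, and both p42 values were the lowest at all 4 genes. Other strong promoters leaned the same way in DMSO. Their median tag ratios of p42 to EV and to p30, 1.16 and 1.06, were under the depth ratios of 1.35 and 1.13. With 40 genes both shares rest on 5 genes or fewer.

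A few promoters stood at a percentile that differed the same way between tunicamycin and DMSO in all 3 lines. Each condition had 1 pooled list, so whether the drug moved them was not tested. The percentile fell in the 3 lines at 8 of the 40 genes (20%, against 15.6% of coding genes): E2F8, TFDP1, CCNB1, CDT1, MCM2, MCM6, MCM7 and TYMS. At MCM2 the summit fell from 47 to 40 tags in EV, from 51 to 39 in p30 and from 51 to 40 in p42 cells. It rose in the 3 lines at 5 of the 40 (12.5%, against 10.9%): RBL1, CCNE1, CCNE2, MCM4 and RRM2. With 1 region per gene, E2F7 took the place of CDT1 among the 8, and CDK6 joined the 5, against 15.4% and 11%. Over all 40 genes the tag ratio of tunicamycin to DMSO had a median of 0.932 with p42, 0.947 with p30 and 1.07 with the empty vector, and 0.932, 0.96 and 1.07 over strong promoters of the other coding genes.

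Away from the promoters the genes were compared by the regions in their windows. Of the 567 regions, 337 had a peak in EV, 368 in p30 and 442 in p42 cells in DMSO, and 338, 337 and 372 after tunicamycin. The p42 list in DMSO, with 78% of the regions (74.4 to 81.2), stood above the rest. The same held across the other coding genes, at 71.3% in that list and 52.1% to 59.4% in the other 5. Coding genes with the same number of regions as each of the 40 would have given 312, 339 and 409 regions in DMSO and 321, 307 and 345 after tunicamycin. In all 6 lists together 251 regions were open (44.3%, 40.2 to 48.4), against 35.6% of the 213597 regions of other coding genes and 215 for genes of the same number. Of these 251, 79 were promoter regions and 97 lay in introns, beside 119 and 274 of all 567. In 1 list alone stood 150 regions (26.5%, against 31.8%). Wilson intervals here cover counting error only.

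**Figure D2:**
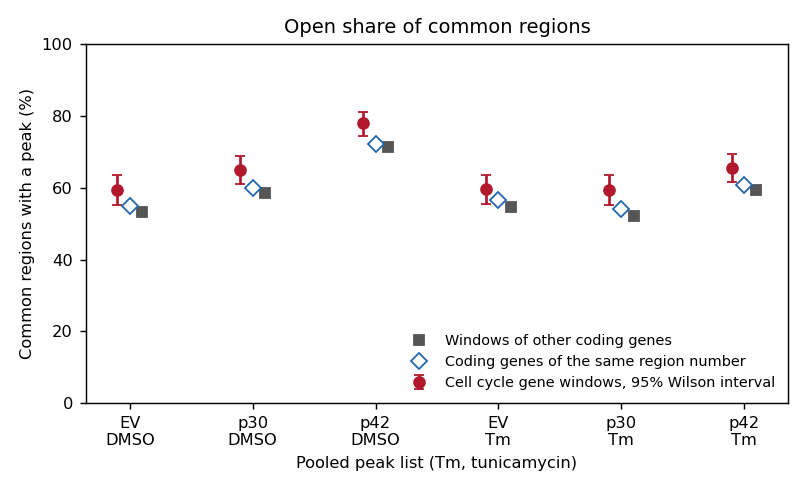
Share of the 567 common regions of the 40 genes that had a peak in each pooled list (red, 95% Wilson interval), beside the windows of all other coding genes (grey squares) and coding genes with the same number of regions (open diamonds). The p42 list in DMSO is highest in all sets, at 78% for the 40 genes.

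Between the isoforms in DMSO, 125 of the 567 regions had a peak with p42 and none with p30 (22%, 18.8 to 25.6), against 24% of the regions of other coding genes and 131 for genes of the same number. At least 1 such region stood in the windows of 31 of the 40 genes, against 77.4% of coding genes. In the other direction 51 regions had a peak with p30 and none with p42 (8.99%, against 11.1%), in 22 of the 40 genes (57.8% of coding genes), with 60.6 for genes of the same number. After tunicamycin the p42 excess was smaller, with 82 regions for p42 (14.5%, against 16.8%) and 47 for p30 (8.29%, against 9.57%). Each of these 4 shares was slightly under the background, and each background lay inside the counting interval of the 40 genes, which was 6.91 to 11.6, 11.8 to 17.6 and 6.29 to 10.8 for the last 3. The p42 lists were the deepest at each treatment, and with every list shortened to its 187704 strongest peaks 500 regions remained in these windows, and the counts became 62 for p42 (12.4%, against 15.4% of the regions of other coding genes) and 58 for p30 (11.6%, against 14.3%) in DMSO, and 53 (10.6%, against 13.3%) and 58 (11.6%, against 14%) after tunicamycin.

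Against the empty vector in DMSO, p42 had 144 regions that EV lacked (25.4%, against 26.5%) and EV had 39 that p42 lacked (6.88%, against 8.37%). p30 had 74 that EV lacked (13.1%, against 13.8%) and EV had 43 that p30 lacked (7.58%, against 8.54%). The comparisons share their lists and are given side by side. Both p42 lists and no other held 26 regions (4.59%, against 4.57%) in 13 genes, both p30 lists 3 regions (0.529%, against 0.592%), and both EV lists 2 (0.353%, against 0.533%). The 26 were in E2F2, E2F3, E2F7, TFDP1, TFDP2, RB1, RBL1, CDK6, CDKN1A, CDKN1B, CDKN2C, MCM4 and MCM6, with 6 of them in RB1 alone. Every list but those of p42 held 3 regions (0.529%, against 0.805%): the RBL2 intron described further on, a promoter region of E2F4 with 11 to 16 tags and an E2F5 intron with 9 to 10. The 3 tunicamycin lists and no other held 2 (0.353%, against 0.199%), a promoter region of MCM3 with 15 to 16 tags and one of CCND3 with 19 to 25. The 3 DMSO lists and no other held 3 (0.529%, against 0.487%), in introns of CCND3, CDK6 and MCM2 with 4 to 15 tags.

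**Figure D3:**
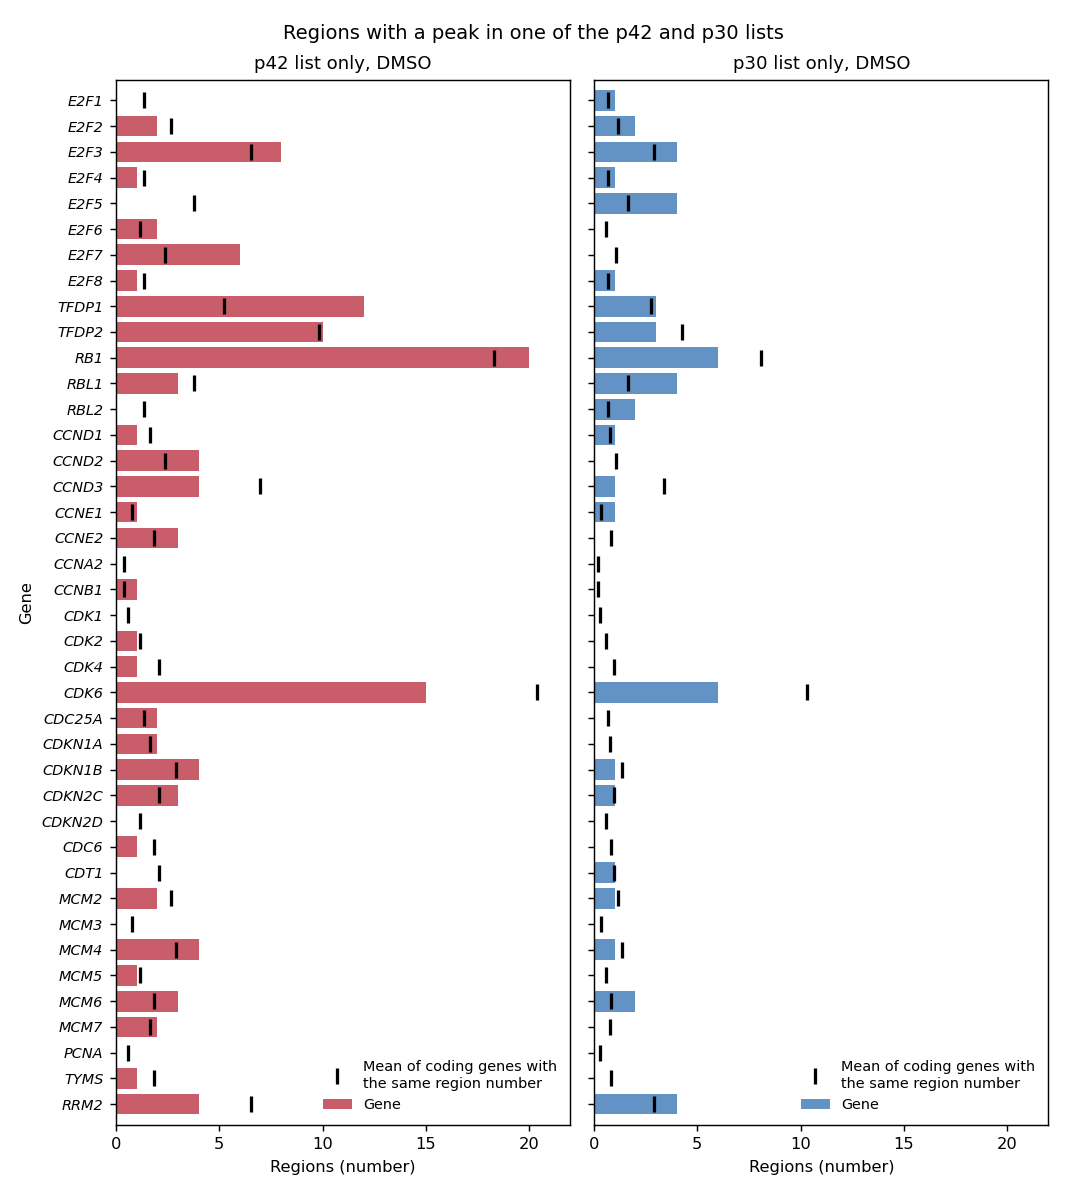
Number of common regions in each of the 40 windows with a peak in the p42 list and none in the p30 list in DMSO (left, red bars) and the reverse (right, blue bars), with black ticks for the mean of coding genes with the same number of regions. TFDP1 (12) and E2F7 (6) stand furthest above their ticks on the left; E2F5 and RBL1 (4 each) stand above theirs on the right.

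TFDP1 encodes DP1, the partner that E2F factors need to bind DNA. Its window held 23 regions, of which 12 had a peak with p42 and none with p30 in DMSO, against a mean of 5.21 in coding genes with 23 regions, and 0.535% of these 187 genes had as many. TFDP1 was singled out as the gene furthest above its mean, and this percent is not corrected for that choice. Of the 12, 4 still had a peak in p42 cells after tunicamycin, 2 of them with none in p30 cells at that treatment. In the p42 list in DMSO the 12 stood at percentiles of 4.76 to 53.8 with 5 to 14 tags. Open regions at TFDP1 numbered 10 in EV, 10 in p30 and 19 in p42 cells in DMSO, and 8, 11 and 11 after tunicamycin. RB1 and TFDP1 lie on chromosome 13, which had 226 common regions per Mb, the most of any chromosome, and a p42-only share of 26.2%; the part of that density in these counts was not tested.

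E2F7, an atypical repressor that works without a DP partner, had 11 regions. 6 of them had a peak with p42 and none with p30, against a mean of 2.36, and 2.11% of coding genes with 11 regions had as many. They lay between 33 and 47.5 kb into and past the gene, with 4 to 7 tags each, near the least a peak can hold. 2 of the 6 were also open in p42 cells after tunicamycin. At the other end, E2F5 had no p42-only region in DMSO where 3.76 was the mean, and 4 p30-only regions where 1.64 was. RBL1 had 3 p42-only and 4 p30-only regions against the same means. Of the coding genes with 16 regions, the number in both windows, 7.18% had 4 or more p30-only regions. E2F7, E2F5 and RBL1, like TFDP1, were picked as extremes of the whole set. Low percents are expected for a few genes among so many, and none was corrected for that choice. Over the whole set, p42-only regions in DMSO numbered 125 against 131 for genes of the same number, and p30-only regions 51 against 60.6. CCND3 had 4 p42-only regions against a mean of 6.97, and CDK6, the window with the most regions, 80, had 15 against 20.4.

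RB1, with 73 regions over 296 kb, had 20 p42-only regions against a mean of 18.3 and 6 p30-only against 8.09, close to genes of like number. E2F3 had 8 and 4 (6.52 and 2.88), TFDP2 10 and 3 (9.83 and 4.26), RRM2 4 and 4 (6.52 and 2.88), and CDKN1B 4 and 1 (2.9 and 1.35). CDKN2D, PCNA and CCNA2 had all of their 6, 3 and 2 regions open in every list. MCM3 had 3 of 4 open in every list, and CDK1 2 of 3. Of the regions of other coding genes 35.6% were open in every list. The share of genes with so few regions that had all of them open is not given here.

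**Figure D4:**
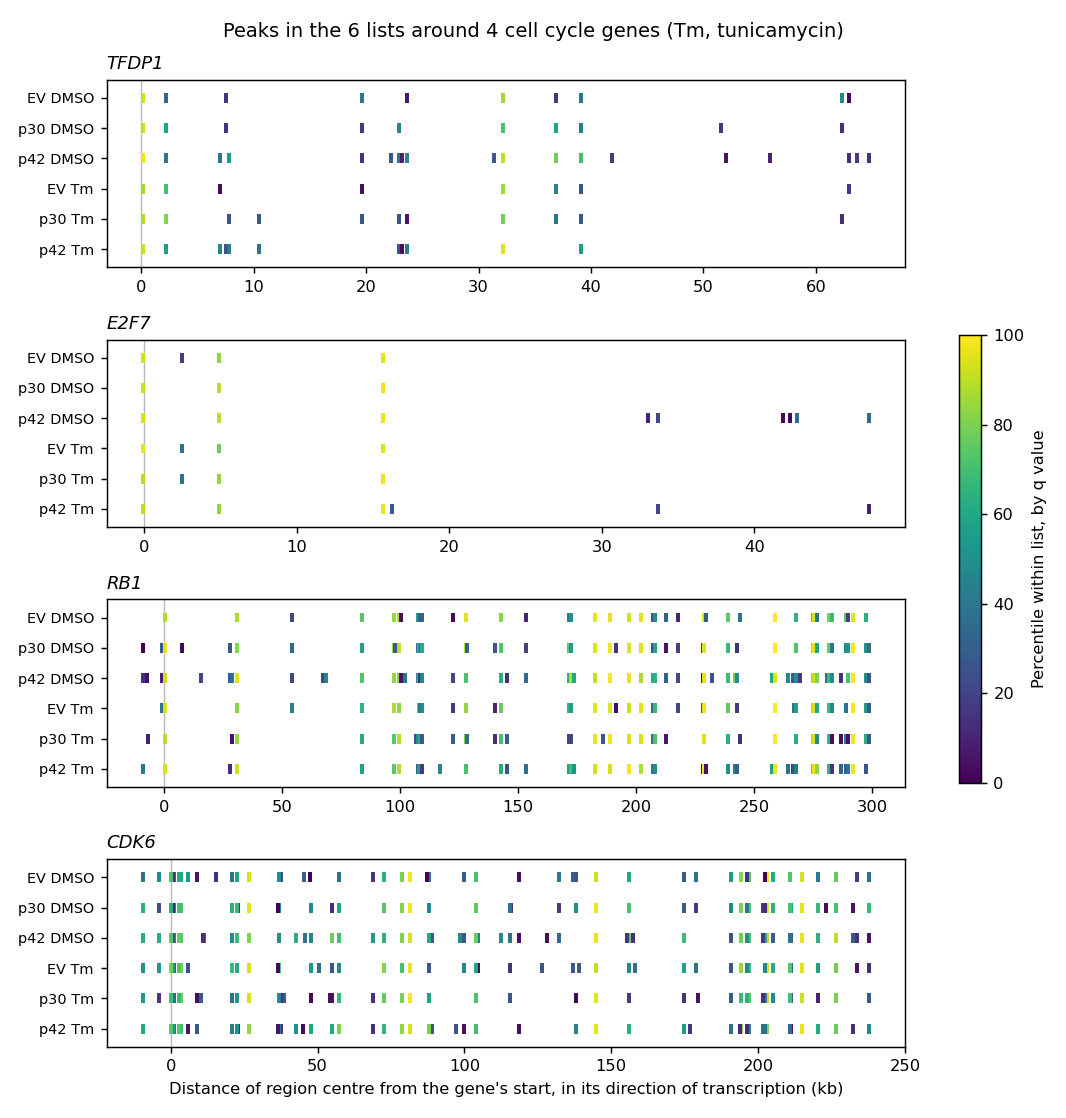
Every common region in the windows of TFDP1, E2F7, RB1 and CDK6 with a peak in each pooled list (rows), by distance of its centre from the gene's canonical start (kb), coloured by percentile within the list. The strong regions run through all 6 rows; at TFDP1 and E2F7 the marks seen in the p42 DMSO row and not in the p30 DMSO row are dark, at percentiles of 53.8 and below.

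Regions open in 1 isoform were weak. The 125 p42-only regions in DMSO had a median percentile of 21 and a median of 8 tags, while the 317 regions open with both isoforms had 73.5 and 24 in the p42 list. The 51 p30-only regions had 21 and 8. Among the 317 shared regions 56.2% were at a higher percentile with p42, with a median difference of 1.21 points, against 62.1% and 2.99 points for the shared regions of other coding genes. Introns held 74 of the 125 p42-only regions and 24 of the 51 p30-only ones, and promoters 10 and 9. Of all 567 regions, introns held 274 and promoters 119. The same split for other coding genes is not given here. Of all 567 regions, 72 lay at the promoter of another coding gene and 112 inside the body of another.

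Only 3 regions had a peak with p42 at a −log10 q of at least 10 and none with p30 in DMSO (0.529%, against 1.04%), and 1 had the reverse (0.176%, against 0.115%). The reverse region and 2 of the 3 are printed whole on the plus strand of hg38 because they are among the strongest differences between the isoforms at these genes. The capitals in E2F2 mark ATGTTGCAA, 1 of 2 spellings searched (with GTGTTGCAA, on both strands) for a composite of a C/EBP and an AP-1 element and added after this sequence was seen, at chr1:23522762-23522770. None of those printed held the C/EBP letters TTGCNNAA, the AP-1 letters TGANTCA or the E2F letters.
E2F2: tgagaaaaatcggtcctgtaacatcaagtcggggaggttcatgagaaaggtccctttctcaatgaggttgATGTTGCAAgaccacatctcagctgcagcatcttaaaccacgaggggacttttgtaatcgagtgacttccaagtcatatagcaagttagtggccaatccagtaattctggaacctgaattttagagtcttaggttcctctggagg
RB1: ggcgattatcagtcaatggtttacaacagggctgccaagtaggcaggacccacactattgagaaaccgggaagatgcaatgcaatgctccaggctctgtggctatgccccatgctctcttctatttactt
RBL2: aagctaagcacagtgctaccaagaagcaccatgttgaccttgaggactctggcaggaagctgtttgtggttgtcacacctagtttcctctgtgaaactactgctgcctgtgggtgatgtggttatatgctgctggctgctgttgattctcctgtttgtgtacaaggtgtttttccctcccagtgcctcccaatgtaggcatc

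The E2F2 region, at chr1:23522692-23522906 in an intron of the gene 8.43 kb from its start, had a peak of 21 tags at percentile 70.1 with p42 in DMSO and of 19 tags at 64.3 with p42 after tunicamycin, and none in the 4 other lists. E2F2 encodes an activator E2F, and its promoter was open in all 6. The composite letters were found within 100 bp of the summit in 0.8% of the 125 p42-only regions and in 1.34% of the p42-only regions of other coding genes.

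The RB1 region, at chr13:48545699-48545828 in an intron 242 kb into the gene, had 19 tags at percentile 78.4 with p42 in DMSO, 9 tags at 41.6 with p42 after tunicamycin and none elsewhere. The RBL2 region, at chr16:53457771-53457972 in an intron of the p130 gene 23.4 kb from its start, was the reverse: it had a peak in all 4 lists without p42, of 8 tags in EV and 14 in p30 cells in DMSO and of 15 and 14 after tunicamycin, and none in either p42 list.

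Under the same threshold after tunicamycin, 2 regions were open with p42 and not p30 (0.353%, against 0.558%), the E2F2 intron and a region 23.2 kb downstream of the start of MCM4 with 14 tags, and 1 was the reverse (0.176%, against 0.125%), the RBL2 intron. Against EV in DMSO, p42 had 4 (0.705%, against 1.33%): the E2F2 and RB1 introns, a region downstream of E2F2 at chr1:23497904-23498035, and a CDK6 intron at chr7:92781138-92781932. EV had 1 that p42 lacked (0.176%, against 0.0978%), in an RB1 intron at chr13:48592785-48592917, where EV had 20 tags in DMSO and the p42 list 10 after tunicamycin.

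Among regions open with both isoforms in DMSO, the 6 widest shifts were in CDK6, MCM4, RRM2, RBL1 and E2F5. The CDK6 intron at chr7:92781138-92781932 was at percentile 77.7 with p42 (23 tags) and 12.2 with p30 (7 tags), and at 60.8 and 3.96 after tunicamycin. A region upstream of MCM4, inside PRKDC, was at 87.4 and 30.2 in DMSO and at 59.8 and 20.9 after tunicamycin. A coding exon of RRM2 at chr2:10124655-10124750 was at 56 and 3.06. In the other direction, a region downstream of CDK6 at chr7:92598743-92598890 was at 4.96 with p42 and 67.3 with p30 in DMSO, but at 47.1 and 27 after tunicamycin, so its order turned. An RBL1 intron at chr20:37071516-37071737 was at 8.67 with p42 and 56.3 with p30 in DMSO and at 8.72 and 33.2 after tunicamycin, with 5 tags in both p42 lists and 7 to 12 in the rest. An E2F5 intron was at 21 and 65.2 in DMSO and at 51.7 and 56.2 after tunicamycin.

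The C/EBP letters were most frequent in the regions that p42 cells had and p30 cells lacked. Within 100 bp of the summit they stood in 24.8% of the 125 p42-only regions (18.1 to 33), in 9.8% of the 51 p30-only regions and in 8.2% of the 317 shared ones. The regions of other coding genes had 19.7%, 7.83% and 10.9%. Of the 26 regions in both p42 lists and no other, 10 held them (38.5%, 22.4 to 57.5), against 29.1%. The 10 were in E2F3, E2F7, TFDP2 with 2, RB1, RBL1, CDK6 with 2, CDKN1B and MCM6. The E2F letters were in 2 of the 125 (1.6%, against 0.332% of such regions of other coding genes), in 0 of the 51 (against 0.341%) and in 11 of the 317 (3.47%, against 0.931%).

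With tunicamycin the p42 list lost more peaks than it gained. In p42 cells 106 of the 567 regions had a peak in DMSO and none after treatment (18.7%, against 20.4%) and 36 gained one (6.35%, against 8.48%). In p30 cells 69 were lost (12.2%, against 14.4%) and 38 gained (6.7%, against 8.11%). In EV cells 52 were lost (9.17%, against 9.67%) and 53 gained (9.35%, against 11.2%). The net change was -70 regions in p42 cells, or -15.8% of those open before treatment, -31 in p30 cells (-8.42%) and 1 in EV cells (0.297%), and for the windows of other coding genes -16.7%, -10.8% and 2.8%. The lists of treated p42 and p30 cells were also shallower than those of their DMSO controls, with 25440000 against 29980000 tags and 23080000 against 26530000, and that of treated EV cells deeper, with 25130000 against 22250000. With a −log10 q of at least 10 before treatment and none after, p42 cells lost 2 regions (0.353%, against 0.176%), 1 of them a TFDP1 intron at chr13:113621589-113621705 that had 29 tags in DMSO. By the same threshold EV cells gained 1 (0.176%, against 0.0833%), a CCND3 intron at chr6:41979892-41980220 with 15 tags.

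By role, the p42-only regions in DMSO numbered 10 of 45 at the activator E2F genes, with 10.6 for coding genes of the same number, 10 of 47 at the repressors (10), 22 of 62 at the DP partners (15), 23 of 96 at the pocket proteins (23.4), 14 of 65 at the cyclins (14.4), 19 of 106 at the kinases and CDC25A (25.6), 9 of 37 at the CDK inhibitors (7.8), 13 of 71 at the licensing genes (14.9) and 5 of 38 at the DNA synthesis genes (8.94). In number of regions the DP partners, through TFDP1, were the furthest above genes of the same number and the kinases, through CDK6, the furthest below.

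A further 48 cell cycle genes were counted in the same way. 47 had a promoter peak in all 6 lists, beside 75.9% of the coding genes used as background, and the exception was the CDK inhibitor gene CDKN2B. Their windows held 428 regions, of which 101 had a peak with p42 and not p30 in DMSO (23.6%) and 38 the reverse (8.88%), beside backgrounds of 24% and 11.1%. The promoter percentile in DMSO was higher with p42 than with p30 for 24 of the 48, with a median difference of 0.0459 points. Of the background genes with a promoter peak in both lists, 61.2% were higher, with a median of 0.985 points. At the 7 genes of the MuvB, MYBL2 and FOXM1 group, which act with E2F4 and the pocket proteins or after them, 24 of 67 regions were p42-only (35.8%) and 3 p30-only (4.48%). The p42-only shares were 22.4% at 17 G2 and mitosis genes, 20.6% at 21 further replication genes and 22.2% at 3 other CDK inhibitor genes.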

How the data were processed

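The members and gene lists were chosen with earlier results of these data known. The submitters' processing notes name Trim Galore 0.6.6, Bowtie2 2.4.4, Picard, MACS2, bedtools, deepTools and DESeq2, which the authors used with no role or order given there, and the study's methods, in 1 section on ChIP-seq and ATAC-seq that words each step for ChIP-seq, describe trimming, alignment to hg38, removal of duplicates and MACS2 calls on single and pooled replicates. Other settings for the ATAC-seq lists, such as a shift for the transposase or a blacklist, are not given in the sources used here. The authors deposited 1 MACS2 peak list per condition, called on both replicates together, with fold enrichment over local background as a ratio, −log10 p-value, −log10 q-value and the summit of each peak. The lowest −log10 q in each list was 1.3.

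From fold and p, whole tags at the summit were solved by the Poisson relation MACS2 uses, within 0.001 on the log10 scale. The tags in a list were estimated from its lowest background, its shortest peak width and a genome of 2700000000 bases, so these depths are estimates. Peaks on chromosomes 1 to 22, X and Y of hg38 were merged and assigned to GENCODE release 44 windows; a peak counted in a region or promoter with 1 bp of overlap. Coding genes with the same number of regions were taken exactly, or the number was widened by 1 at a time until 50 genes were found. Intervals are Wilson 95% intervals. All 40 members are accounted for by role. Single regions were named where a −log10 q of at least 10 in 1 list met no peak in the other, with the 3 widest percentile shifts in each direction; promoters were printed by number of E2F matches, 1 gene a role, where the printed stretch holds one, and regions strongest first; 1 region and 1 marker gene are not reported here. RefSeq promoters matched 32 of 40 members and equalled hg38 for all 32. The C/EBP:AP-1 composite letters, known from earlier work on these data, were added after the E2F2 region was read. The solving of tags, the merging of peaks and their presence by list were tested on simulated data, and the other steps were not (Python 3.11.15, numpy 2.4.6, scipy 1.17.1, matplotlib 3.10.9). Distances are from the Ensembl canonical start. Alternatives were the q threshold, equal list lengths, a depth-scaled threshold, overlap, merging, window and promoter width, and, added later, 1 promoter region per gene.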

Additional observations from a re-analysis of the deposited data

How the results depend on the processing

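No paired analysis was possible because each peak list pools both replicates, and for the same reason no replicate could be left out. In the order p42-only and p30-only in DMSO, p42-only and p30-only after tunicamycin, and lost with tunicamycin in p42 cells, the counts of 125, 51, 82, 47 and 106 regions became 3, 1, 2, 1 and 2 with a −log10 q of at least 10, and 276, 121, 182, 103 and 237 with 50 kb on each side, where more regions are counted by construction. With all lists shortened to the length of the shortest by q value, the 1st, the 3rd and the last became 62, 53 and 60, and p30-only counts 58 and 58, so that p42-only and p30-only regions were nearly equal in number. With peaks covering at least 50% of a region, p30-only regions after tunicamycin became 74. The depth-scaled threshold, gene bodies alone and pairwise merging kept the 5 counts within 1.5 times. The share of p42-only regions stayed under that of coding genes in every setting. Promoters open in all 6 lists numbered 38 to 40. The median promoter difference of 0.0297 points became 0.521 by fold, 0.228 within 500 bp and -0.14 within 2 kb, and stayed at 0.0297 with 1 promoter region per gene, so its sign is not settled; the cause was not tested. The counts of promoters with p42 above (5 to 7) or below (3 to 4) the other lists stayed within 1.5 times under settings added after the values were seen. By fold, the share above was 17.5% against 18.2% of coding genes, and the share below 7.5% against 6.98%. Both gaps to coding genes were narrower there than by q value. With 1 pooled list a condition, a peak near the threshold can be missing from a list by counting error alone.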
